A study of Drosophila melanogaster with 8 samples.

Results

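The levels of 7 genes that pattern the neuroectoderm, the sheet of cells from which the ventral nerve cord forms, were followed by RNA sequencing in whole Drosophila melanogaster embryos, in 8 libraries. The columnar genes were vnd, ind and Dr (also called msh), and the EGF receptor pathway genes were the receptor Egfr, the ligands spi and vn and the secreted inhibitor aos. These 7 genes were found by symbol among the 17321 genes listed in both deposited tables, and all 7 passed the filter on low values in every comparison. The genes were chosen by name, with earlier results of these data known.

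Each library came from a 50 mg collection of embryos of stages 8 to 16, a period that spans the formation of neuroblasts and much of their division. All embryos carried da-Gal4, a driver active nearly throughout the embryo. In the first experiment, Quad embryos (n = 2) also carried UAS transgenes for ase, SoxN, wor and Kr, 4 transcription factors of the early nervous system, and Ctrl embryos (n = 2) carried the driver alone. In the second experiment, QuadD embryos (n = 2) carried ase-Vp16, SoxN-EnR and wor-EnR with wild-type Kr, and Ctrl-D embryos (n = 2) carried the driver alone. Vp16 is a domain that activates transcription, here on ase, and EnR is the Engrailed domain that represses it, here on SoxN and wor. OregonR is part of the column names of the driver-only libraries alone, so strain background cannot be told apart from the transgenes. Each experiment had its own lane and its own table, so levels were tested only within an experiment. The labels call the replicates biological.

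In the fly embryo the columnar genes encode homeodomain factors that divide the neuroectoderm into strips along the dorsoventral axis, vnd ventrally, ind in the intermediate column and Dr dorsally. The more ventral genes are known to repress the more dorsal ones, so that each strip of cells gives rise to its own set of neuroblasts. The EGF receptor is active in the ventral and intermediate columns, where it is needed for ind and for keeping vnd on. Spi is made as an inactive precursor, vn is secreted in active form, and aos is switched on by the pathway and binds Spi outside the cell.

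The levels below are the deposited total RPKM, which count reads per length of transcript and size of library, and all differences and standard errors (SE) are log2 values on the log2(RPKM + 1) scale. Adjusted p-values are from limma with Benjamini-Hochberg adjustment over all genes tested, with 0.05 as the threshold. The RNA of the misexpressed genes was set beside the labels. Values per gene do not part RNA of a transgene from RNA of the embryo's own gene. RNA of ase and wor was higher in both Quad and QuadD, by 1.60 to 2.08 (adjusted p from 5.38e-05 to 0.000257). The 3 neuroblast markers, which were not misexpressed, rose as well, by 1.25 to 1.66 in Quad and by 1.41 to 1.71 in QuadD. The rises of ase and wor alone therefore do not check the labels. SoxN differed by 0.35 in Quad (adjusted p = 0.0536) and rose by 0.41 in QuadD (adjusted p = 0.0162), which did not pass without QuadD replicate 1 (0.39) or 2 (0.43). Kr rose by 1.33 in Quad, but in the libraries labelled QuadD it stood at 64.8 and 67.4 RPKM against 69.2 and 57.5 RPKM in Ctrl-D (0.066, adjusted p = 0.637), so the group is called QuadD by its label. Of 31 tissue markers tested, 21 passed in Quad and 25 in QuadD (67.7% and 80.6%, beside 47.5% and 55% of all genes tested). All 3 neuroblast markers were higher in both, and all 4 epidermal, 3 gut and 2 tracheal markers were lower in both. All 3 glial markers were higher in Quad and 2 of the 3 in QuadD, and 2 of the 4 neuronal markers were higher in Quad and all 4 in QuadD. Summed over 3 neuroblast markers, levels went from 238 to 245 RPKM in Ctrl to 704 to 725 RPKM in Quad, and from 262 to 340 RPKM in Ctrl-D to 921 to 927 RPKM in QuadD. The 4 epidermal markers summed to 747 to 947 RPKM in Ctrl, 82.1 to 98.5 RPKM in Quad, 525 to 653 RPKM in Ctrl-D and 46.3 to 54.1 RPKM in QuadD. A set of 6 genes of late embryos summed to 917 to 1230.0 RPKM in Ctrl, 66.4 to 80.6 RPKM in Quad, 599 to 789 RPKM in Ctrl-D and 17.3 to 20.9 RPKM in QuadD. Of these 6, Cpr47Ea was at the floor of the tables in every library and TwdlM was under 1 RPKM in the second experiment. The late set and the epidermal list share 2 genes, verm and Gasp, and without them the other 4 late genes summed to 294 to 411 RPKM in Ctrl, 25.4 to 25.6 RPKM in Quad, 178 to 246 RPKM in Ctrl-D and at most 6.005 RPKM in QuadD. Of 10 genes of early embryos, 5 rose and 3 fell in Quad, and 4 rose and 4 fell in QuadD. That is 80% in each, beside the 47.5% and 55% of all genes. They summed to 315 to 316 RPKM in Ctrl, 378 to 460 RPKM in Quad, 388 to 437 RPKM in Ctrl-D and 469 to 520 RPKM in QuadD. Without sna, a choice made after its values were seen, the other 9 summed to 230.1 to 236 RPKM in Ctrl, 214 to 279.7 RPKM in Quad, 274 to 319 RPKM in Ctrl-D and 239 to 245 RPKM in QuadD. The 3 midline markers summed to 173 to 181 RPKM in Ctrl, 157 to 197 RPKM in Quad, 169.9 to 172 RPKM in Ctrl-D and 135 to 139.7 RPKM in QuadD. Every neuroblast, epidermal and midline marker was above 1 RPKM in each group. The part of these shifts in the results below was not tested, and in whole-embryo RNA fewer cells of a type and less RNA per cell cannot be told apart.

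In Quad against Ctrl, 4 of the 7 genes passed the threshold. Ind, Dr and spi rose, and Egfr fell. Of all 10436 genes tested, 47.5% passed, 24.9% higher and 22.6% lower, so a count of 4 of 7 is close to the background and is no result about these genes as a group. In QuadD against Ctrl-D, 5 of the 7 passed, where 55% of 10207 genes passed, 27.4% higher and 27.7% lower. There Dr, spi and vn rose, and Egfr and aos fell. The median absolute difference of the 7 genes was 0.57 in Quad and 0.61 in QuadD, beside 0.45 over all genes tested in either comparison.

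**Figure D1:**
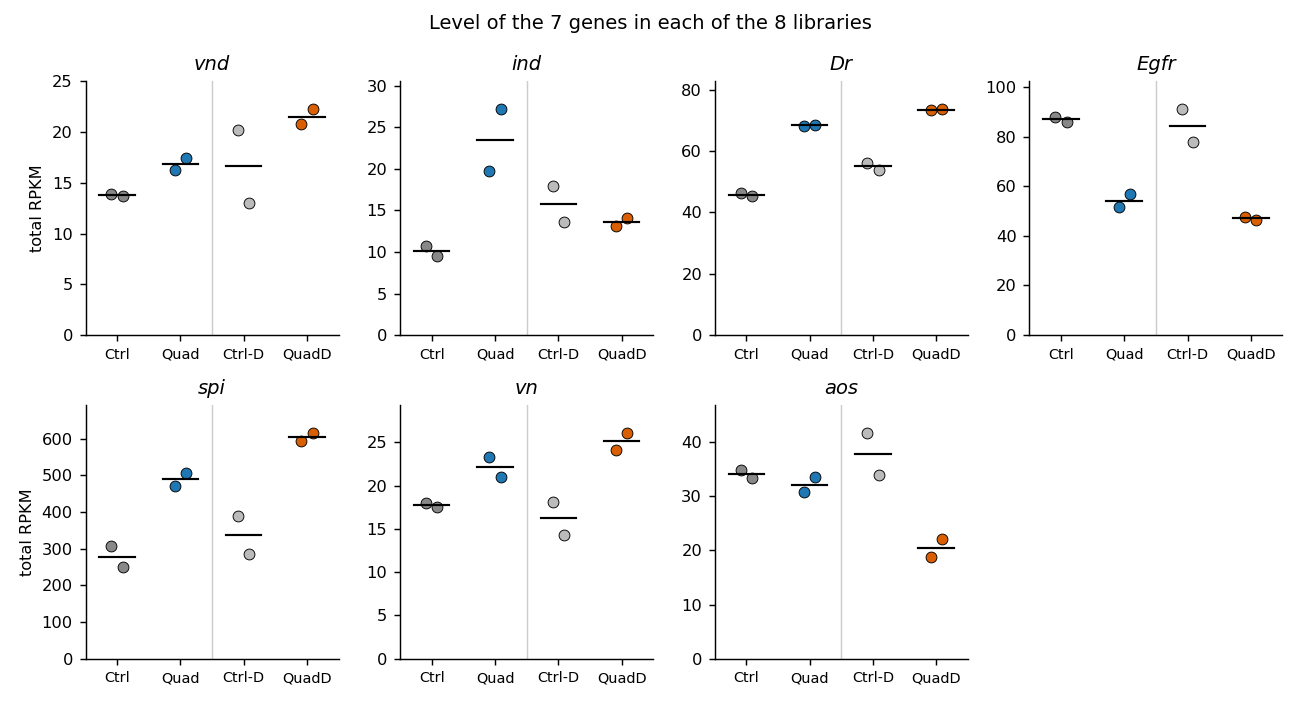
Total RPKM (y axis, linear, from 0, with its own range for each gene) of the 7 genes in every library, by group (x axis). Points are libraries, black lines are group means, and the grey line parts the experiments. Vnd, Dr, Egfr, spi and vn are separated from their control in both experiments, as were 77.1% of all genes tested in the first and 81.3% in the second. Ind stands above its control in Quad alone, and aos stands below its control in QuadD alone while its Quad and Ctrl libraries overlap.

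By length-scaled level, spi was first in every group, at a mean of 278 RPKM in Ctrl, 489.5 RPKM in Quad, 337 RPKM in Ctrl-D and 605 RPKM in QuadD. In both control groups Egfr, Dr and aos followed in that order, and ind was last. The order changed in both misexpression groups, where Dr came next after spi, at 68.4 RPKM in Quad and 73.5 RPKM in QuadD. Egfr then followed Dr in both. Ind moved from last in Ctrl to just above vn and vnd in Quad and was last in QuadD. Libraries of neighbours in this order overlapped for ind and vn in Quad, for vnd and aos in QuadD, and for vnd, vn and ind in Ctrl-D.

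Vnd, the gene of the ventral column, passed in neither comparison. Its level was 13.9 and 13.7 RPKM in Ctrl and 16.3 and 17.4 RPKM in Quad. The Quad libraries were both higher than the Ctrl libraries, as the libraries of the groups were apart for 77.1% of all genes tested. The difference was 0.27 ± 0.15 (SE), with a 95% confidence interval from -0.084 to 0.62 and an adjusted p of 0.172. The fold of mean RPKM was 1.22. Deposited read counts, which hold part of the vnd reads, gave a larger depth-scaled fold of 1.65 (95% interval from 1.40 to 1.94, counting error only). In the second experiment vnd stood at 20.2 and 13.0 RPKM in Ctrl-D and at 20.8 and 22.3 RPKM in QuadD. Again the groups were apart, as for 81.3% of genes tested, but Ctrl-D replicate 1 lay close to QuadD. The difference was 0.39 ± 0.21 with an interval from -0.12 to 0.89 and an adjusted p of 0.157. Without Ctrl-D replicate 1 it was 0.69 and passed (adjusted p = 0.0113). The gap between the Ctrl-D replicates, 0.60 on the log2 scale, was exceeded by 5.05% of genes.

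Ind, the gene of the intermediate column, showed the largest rise among the 7 genes in Quad. It measured 10.7 and 9.52 RPKM in Ctrl and 19.8 and 27.2 RPKM in Quad, so both Quad libraries were well above the controls although they differed from each other. The rise was 1.13 ± 0.19 (adjusted p = 0.00511), a 2.32-fold higher mean, and 4.46% of all genes tested had a larger rise. It passed under all 13 alternative settings, with values from 0.91 to 1.35. In QuadD the gene was not raised, with 13.1 and 14.1 RPKM beside 18.0 and 13.6 RPKM in Ctrl-D. These groups overlapped, and the difference of -0.19 ± 0.17 did not pass (adjusted p = 0.364). Without Ctrl-D replicate 1 it was 0.0024. The effects of QuadD and Quad on ind differed by -1.32 ± 0.27 in the fit of all 8 libraries (adjusted p = 0.0386), which makes ind the 1 of the 7 genes past the threshold there, beside 2.7% of 10775 genes tested (0.937% higher and 1.76% lower). That call held in 6 of 16 alternatives, in all of which the difference was negative (from -1.53 to -1.10). It was lost without each of Quad replicate 2 (-1.10), Ctrl replicates 1 (-1.39) and 2 (-1.24), QuadD replicates 1 (-1.26) and 2 (-1.37) and Ctrl-D replicate 1 (-1.12), and with the replicate number as a block (-1.32, adjusted p = 0.0936). The driver-only levels of ind also differed between the experiments, 10.1 ± 0.83 RPKM (SD, n = 2) in Ctrl and 15.8 ± 3.12 RPKM in Ctrl-D. The tables may have been normalized separately, so this is given side by side with no test. With the same limit on levels set across experiments, the Quad libraries exceeded all 4 control libraries. The QuadD libraries lay above both Ctrl libraries and overlapped those of Ctrl-D.

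Dr, the gene of the dorsal column, rose in both experiments. It stood at 46.3 and 45.3 RPKM in Ctrl and at 68.1 and 68.7 RPKM in Quad. The rise was 0.57 ± 0.10 (adjusted p = 0.00477) and passed in all 13 alternatives. In Ctrl-D it measured 56.0 and 54.0 RPKM, and in QuadD 73.4 and 73.7 RPKM. That rise was 0.41 ± 0.08 (adjusted p = 0.00777). It missed the threshold without QuadD replicate 1 (0.42, adjusted p = 0.0651) or QuadD replicate 2 (0.41, adjusted p = 0.0731), with nearly the same size. The effects on Dr in QuadD and Quad differed by -0.16 ± 0.11, with an interval from -0.42 to 0.11 (adjusted p = 0.550).

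Ratios between the whole-embryo RNA levels of the columnar genes followed from these values. The level of ind was 0.73 ± 0.054 (SD, n = 2) of that of vnd in Ctrl and 1.39 ± 0.24 of it in Quad, so the intermediate gene exceeded the ventral gene in both Quad libraries and in neither Ctrl library. In the second experiment this ratio was 0.97 ± 0.11 in Ctrl-D and 0.63 ± 0.0050 in QuadD. Dr over vnd went from 3.32 ± 0.021 in Ctrl to 4.06 ± 0.17 in Quad. It was 3.46 ± 0.98 in Ctrl-D and 3.42 ± 0.15 in QuadD, a change smaller than the spread between the Ctrl-D libraries. These ratios restate the levels and were not tested apart from them, and they do not measure the columns themselves.

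**Figure D2:**
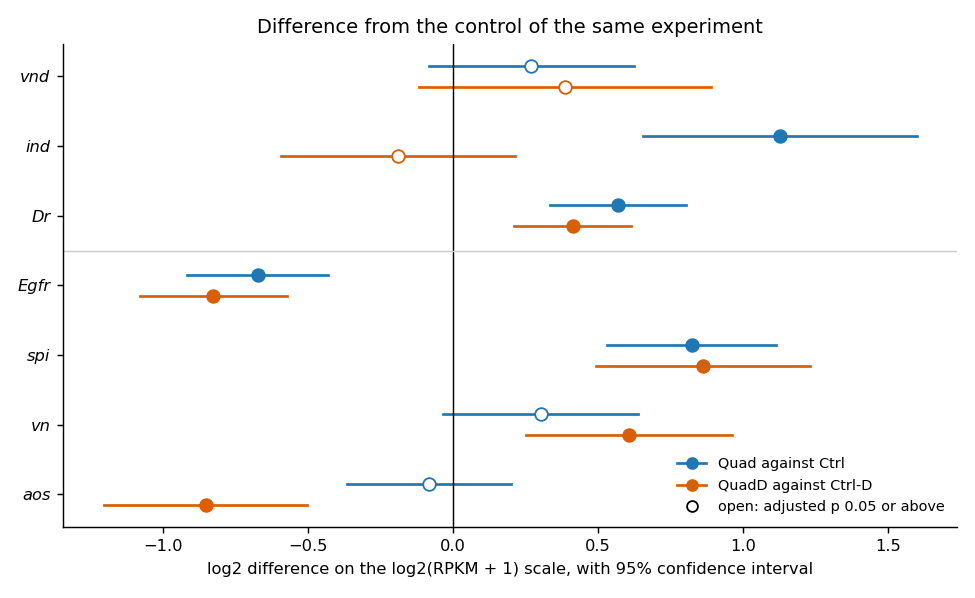
Difference of each gene from the control of its experiment (x axis, log2 on the log2(RPKM + 1) scale) with 95% confidence intervals, Quad in blue and QuadD in orange. Open points missed the threshold. Egfr, spi and Dr have filled points on the same side of 0 in both experiments, ind, vn and aos have a filled point in 1 experiment, and vnd has none.

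Egfr, the receptor, fell in both experiments. It measured 87.9 and 85.8 RPKM in Ctrl and 51.6 and 56.8 RPKM in Quad. Both Quad libraries lay far below the controls, and the mean fell by 37.6% (-0.67 ± 0.10, adjusted p = 0.00300). In the second experiment it measured 91.0 and 77.7 RPKM in Ctrl-D and 47.5 and 46.5 RPKM in QuadD. The mean fell by 44.2% (-0.83 ± 0.10, adjusted p = 0.00152), with no overlap of the groups. Both falls passed in all 12 alternatives, none of which used the deposited counts. The falls differed from each other by -0.15 ± 0.14 (interval from -0.48 to 0.17).

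Spi, the ligand with the highest level, rose in both. Its level was 306 and 249.5 RPKM in Ctrl and 472 and 507 RPKM in Quad. The groups were widely apart, and the rise was 0.82 ± 0.12 (adjusted p = 0.00286). In Ctrl-D it was 389 and 284 RPKM, a wide spread, and in QuadD 595 and 615 RPKM. The rise was 0.86 ± 0.15 (adjusted p = 0.00491). Each rise passed in all 12 alternatives, all of them on RPKM, because the deposited counts of spi were 0 in every library. Between the experiments the rises differed by 0.039 ± 0.21 (interval from -0.45 to 0.52), and that difference changed sign without Quad replicate 1 (-0.013), Ctrl replicate 1 (-0.11) or Ctrl-D replicate 2 (-0.19).

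Vn, the neuregulin-like ligand, stood at 18.0 and 17.6 RPKM in Ctrl and at 23.3 and 21.0 RPKM in Quad. The groups did not overlap, but the difference of 0.30 ± 0.14 missed the threshold (adjusted p = 0.118). In Ctrl-D it measured 18.1 and 14.3 RPKM and in QuadD 24.1 and 26.1 RPKM. That rise was 0.61 ± 0.15 (adjusted p = 0.0149). It missed the threshold without QuadD replicate 2 (0.55, adjusted p = 0.0814). The difference between the effects, 0.30 ± 0.20, did not pass (adjusted p = 0.495).

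Aos, the secreted inhibitor and a widely used readout of the pathway, fell in QuadD and did not pass in Quad. It stood at 34.7 and 33.4 RPKM in Ctrl and at 30.8 and 33.5 RPKM in Quad. The groups overlapped, and the difference was -0.083 ± 0.12 (interval from -0.37 to 0.20, adjusted p = 0.586). In Ctrl-D it measured 41.7 and 33.9 RPKM and in QuadD 18.8 and 22.1 RPKM. Both QuadD libraries were far below both Ctrl-D libraries, and the mean fell by 45.9% (-0.85 ± 0.14, adjusted p = 0.00421). This fall passed in all 13 alternatives. The effects on aos in QuadD and Quad differed by -0.77 ± 0.19, which missed the threshold (adjusted p = 0.0775). With voom on genes whose deposited counts were proportional to RPKM, chosen after the data were seen, the difference was -0.78 and passed (adjusted p = 0.0488), and the adjusted p ran to 0.261 over all 16 alternatives.

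The RNA of the ligand spi rose and that of Egfr fell in both experiments. Spi over Egfr was 3.19 ± 0.41 (SD, n = 2) in Ctrl and 9.04 ± 0.16 in Quad, and 3.97 ± 0.44 in Ctrl-D and 12.9 ± 0.52 in QuadD. Spi over aos, the ligand against its inhibitor, went from 8.14 ± 0.95 to 15.2 ± 0.16 in Quad and from 8.86 ± 0.68 to 29.7 ± 2.72 in QuadD. These are RNA levels in whole embryos and say nothing of protein or of signalling.

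The rest of the pathway was read from a list of 29 genes, 28 of which were tested. In Quad 7 rose, 7 fell and 14 did not pass, with a median difference of 0.078. In QuadD 9 rose, 5 fell and 14 did not pass, with a median of 0.13. The share that passed, 50% in each, is near the background. Over all genes the medians were 0.053 and 0.034. The genes named next beyond ed, Dsor1, edl, cic, grk, Krn, RasGAP1 and Mkp3 were chosen after their values were seen.

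Among the other ligands, Krn, a Spi-like ligand, fell from 30.6 and 27.4 RPKM in Ctrl to 17.7 and 16.3 RPKM in Quad (-0.73 ± 0.14, adjusted p = 0.00684). Without Ctrl replicate 1 this fall was -0.66 and did not pass. In QuadD the difference of Krn was -0.18 ± 0.12 (adjusted p = 0.222). Grk, the ligand of the ovary, was low throughout, from 3.29 to 6.15 RPKM, and passed in neither comparison (0.070 and 0.12). Of 5 tested genes that act on the ligands inside the cell, 1 rose and 1 fell in Quad, 40% beside 47.5% of all genes. In QuadD 3 of these 5 rose and none fell, 60% beside the 55% of all genes that passed and the 27.4% that rose. The largest of these 3 rises in QuadD was 0.99 and passed in all 13 alternatives. The rise of stet in QuadD was 0.81, a call lost without QuadD replicate 1 (0.70). The fall in Quad was that of ru (-0.68), a call kept in 5 of 12 alternatives. S, which encodes a chaperone of Spi, passed in neither comparison.

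On the list, 4 genes act on the receptor or as feedback inhibitors. Kek1, a transmembrane inhibitor of the receptor and a known target of the pathway, rose from 7.10 and 7.51 RPKM in Ctrl to 16.9 and 13.4 RPKM in Quad (0.95 ± 0.18, adjusted p = 0.00763). It rose from 5.002 and 6.64 RPKM in Ctrl-D to 17.1 and 22.8 RPKM in QuadD (1.62 ± 0.20, adjusted p = 0.00139). Ed, a cell adhesion protein that dampens receptor signalling, fell from 242 and 235 RPKM to 136 and 132 RPKM in Quad (-0.83 ± 0.08, adjusted p = 0.000841) and from 227 and 228 RPKM to 130.4 and 125 RPKM in QuadD (-0.83 ± 0.08, adjusted p = 0.000517). Both genes passed in every alternative run. The feedback inhibitor sty and the ubiquitin ligase Cbl passed in neither comparison.

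In the relay from receptor to nucleus, 4 of 11 genes rose in each experiment and none fell. This share of 36.4% is below the 47.5% and 55% of all genes that passed in either direction. It is above the 24.9% and 27.4% of all genes that passed higher. Dsor1, the MAP kinase kinase of the pathway, had the largest rise, from 20.7 and 19.8 RPKM to 44.9 and 50.4 RPKM in Quad (1.19 ± 0.12, adjusted p = 0.000905) and from 31.5 and 25.7 RPKM to 57.0 and 65.9 RPKM in QuadD (1.08 ± 0.13, adjusted p = 0.00142). Ras85D (0.49 in Quad and 0.45 in QuadD), the kinase Raf (0.50 and 0.39) and the adaptor Shc (0.49 and 0.49) were the others. Of these, the call of Ras85D was lost without Ctrl replicate 2 (0.43) or QuadD replicate 2 (0.43). That of Raf was lost without Ctrl replicate 2 (0.37), Quad replicate 2 (0.41), QuadD replicate 1 (0.44) or QuadD replicate 2 (0.34), and that of Shc in Quad without Ctrl replicate 1 (0.49) or 2 (0.48). With no filter on low values the calls of both in Quad were lost too, and that of Shc also with RLE scaling or no variance trend. The MAP kinase itself, rl, passed in neither. Mkp3, the phosphatase that acts on rl, fell from 35.1 and 36.8 RPKM to 22.0 and 20.7 RPKM in Quad (-0.72 ± 0.12, adjusted p = 0.00463), which did not pass without Ctrl replicate 2 (-0.69). It fell from 33.9 and 36.7 RPKM to 17.5 and 19.7 RPKM in QuadD (-0.89 ± 0.12, adjusted p = 0.00171). RasGAP1 passed in neither (0.075 and -0.075), and its sign turned in Quad under RLE scaling (-0.013).

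All 4 nuclear effectors passed in both experiments, 3 lower and 1 higher, where 47.5% and 55% of all genes passed. Pnt, the ETS activator of the pathway, fell by 0.39 ± 0.10 in Quad and by 0.79 ± 0.09 in QuadD. Aop, the ETS repressor that competes with it, fell by 0.41 ± 0.11 and by 0.90 ± 0.11. Cic, a repressor that the pathway relieves, fell from 84.1 and 72.0 RPKM to 57.5 and 46.8 RPKM in Quad (-0.58 ± 0.14, adjusted p = 0.0170) and from 69.2 and 71.3 RPKM to 32.6 and 27.9 RPKM in QuadD (-1.19 ± 0.11, adjusted p = 0.000466). Edl, which binds and holds back both ETS factors, rose from 145 RPKM in both Ctrl libraries to 219 and 263 RPKM in Quad (0.72 ± 0.11, adjusted p = 0.00336). It rose from 179 and 155 RPKM in Ctrl-D to 339 and 365 RPKM in QuadD (1.07 ± 0.10, adjusted p = 0.000541). The calls in Quad of pnt (-0.38 and -0.40) and aop (-0.37 and -0.44) were lost without Ctrl replicate 1 or 2, and that of cic without Ctrl replicate 1 (-0.46). Those of pnt and aop were lost too with no variance trend, and that of aop also with no filter on low values. The sizes in QuadD and Quad differed by -0.40 for pnt, -0.50 for aop, -0.62 for cic and 0.35 for edl, and none of these 4 differences passed (adjusted p from 0.140 to 0.313). Over the 28 genes of the list, limma called no difference between the effects, with 6 at an unadjusted p under 0.05, and voom called none of the 8 it could test.

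**Figure D3:**
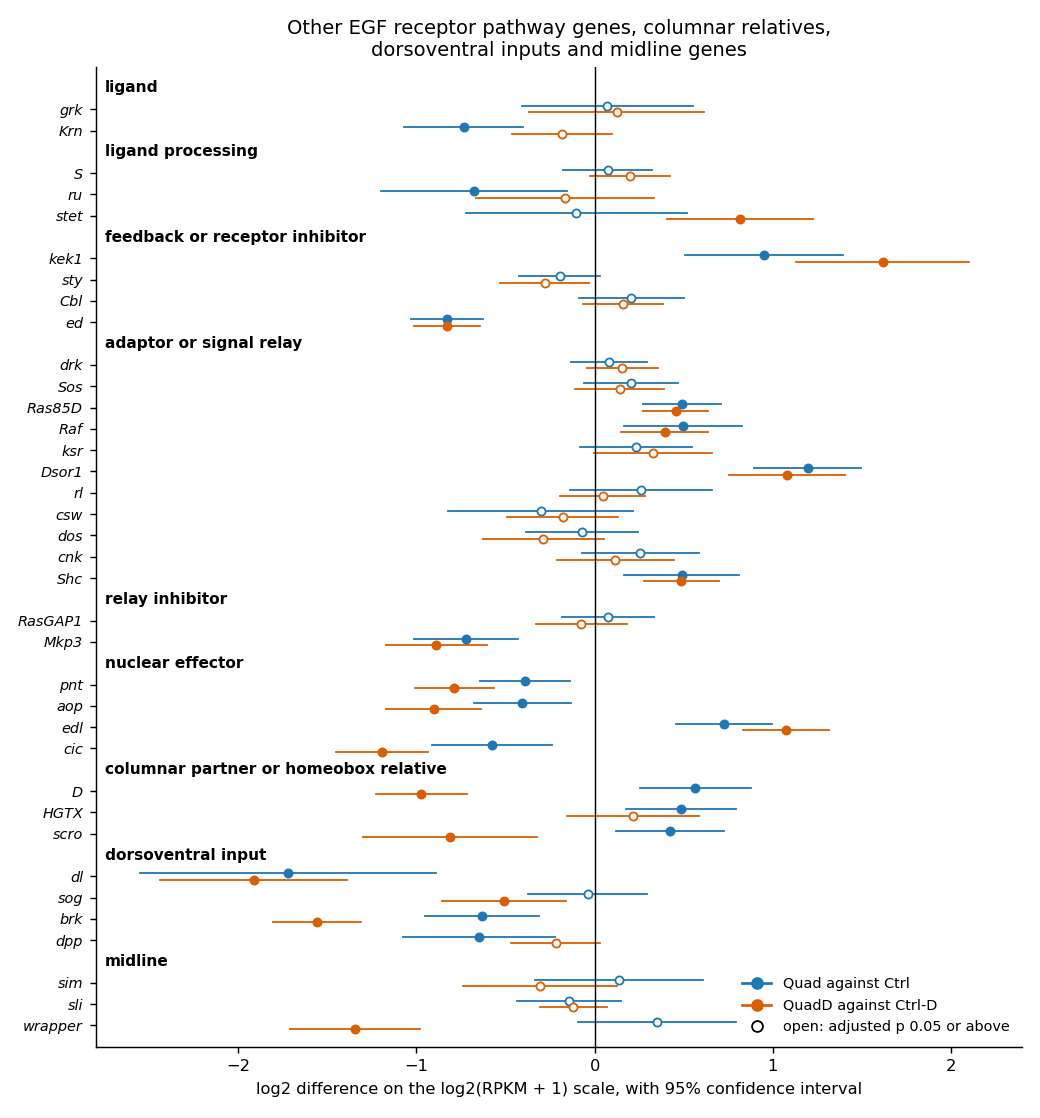
Differences from the control of each experiment (x axis, log2 on the log2(RPKM + 1) scale, with 95% confidence intervals) for most of the listed EGF receptor pathway genes and for relatives, inputs and neighbours of the columnar genes, grouped by role. Quad is blue, QuadD is orange and open points missed the threshold. The nuclear effectors have filled points on the same side in both experiments, whereas D and scro have filled points on opposite sides of 0.

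Around the columnar genes, a list of 10 genes held homeobox relatives and partners, dorsoventral inputs and midline genes. In Quad 3 rose and 3 fell, 60% beside 47.5% of all genes, and in QuadD none rose and 6 fell, 60% beside 55%. In the direction of these 6, 27.7% of all genes passed lower in QuadD. D, a Sox factor that acts with the columnar genes in the neuroectoderm, rose from 106 and 111 RPKM in Ctrl to 143 and 181 RPKM in Quad (0.56 ± 0.13, adjusted p = 0.0136), which did not pass without Ctrl replicate 1 (0.53). It fell from 189.6 and 179.8 RPKM in Ctrl-D to 86.0 and 102 RPKM in QuadD (-0.97 ± 0.10, adjusted p = 0.000849), and the effects differed by -1.54 ± 0.18 (adjusted p = 0.00258). Scro, an NK homeobox relative of vnd, rose from 22.0 and 20.4 RPKM to 28.8 and 28.7 RPKM in Quad (0.42 ± 0.13, adjusted p = 0.0344) and fell from 11.3 and 16.7 RPKM to 7.58 and 7.22 RPKM in QuadD (-0.81 ± 0.20, adjusted p = 0.0161). The rise of scro was lost without Ctrl replicate 1 (0.47) or 2 (0.37) and its fall without QuadD replicate 2 (-0.78) or Ctrl-D replicate 2 (-0.56). Its rise was lost too with RLE scaling, the fit of all 8 libraries and the replicate block, and was kept in 7 of 12 alternatives. HGTX, the fly Nkx6 gene, rose in Quad by 0.48 ± 0.13 (adjusted p = 0.0232), lost without Ctrl replicate 1 (0.49) or 2 (0.47), and differed in QuadD by 0.21 (adjusted p = 0.269).

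Among the dorsoventral inputs, dl, the maternal Rel factor whose gradient sets the ventral fates, fell in both experiments. It went from 15.4 and 20.7 RPKM to 7.04 and 3.08 RPKM in Quad (-1.72 ± 0.34, adjusted p = 0.00851) and from 8.80 and 10.2 RPKM to 1.36 and 2.27 RPKM in QuadD (-1.91 ± 0.22, adjusted p = 0.00102). Brk, the repressor of Dpp targets in the neuroectoderm, fell from 45.95 and 40.6 RPKM to 25.7 and 29.4 RPKM in Quad (-0.63 ± 0.13, adjusted p = 0.00993), which was lost without Ctrl replicate 1 (-0.54). Brk fell in QuadD from 52.2 and 56.4 RPKM to 17.9 and 17.7 RPKM (-1.56 ± 0.10, adjusted p = 0.000169), and the effects in QuadD and Quad differed by -0.93 ± 0.16 (adjusted p = 0.0193), a call kept in 9 of 16 alternatives. Dpp, the dorsal signal, fell by 0.65 in Quad, lost without Ctrl replicate 1 (-0.58) or 2 (-0.72) and with no filter on low values. The Dpp inhibitor sog fell by 0.51 in QuadD, lost without QuadD replicate 1 (-0.59), QuadD replicate 2 (-0.43) or Ctrl-D replicate 1 (-0.35). The last pair was named after its values were seen. Of the midline genes, sim, the master gene of the midline, and sli, the midline repellent, passed in neither comparison. Wrapper, a midline glial protein, did not pass in Quad (0.35, adjusted p = 0.161; 0.62 and past the threshold without Quad replicate 2). It fell in QuadD from 29.4 and 37.7 RPKM to 13.0 and 12.1 RPKM (-1.34 ± 0.15, adjusted p = 0.000969).

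Genes with the pattern most like each columnar gene were sought among 4308 genes with a mean of at least 10 RPKM, by Euclidean distance over the 8 libraries after subtracting the control mean of each experiment. Nearest to ind were upd1 (distance 0.30), which encodes a ligand of the JAK/STAT pathway, hkb (0.38), a zinc finger gap gene, and Sox21a (0.50), a Sox factor. Their differences were 1.19, 1.31 and 1.19 in Quad and -0.087, -0.12 and 0.034 in QuadD, beside 1.13 and -0.19 for ind. Hkb, for instance, stood at 17.4 and 19.7 RPKM in Ctrl, 43.3 and 51.8 RPKM in Quad, 32.3 and 25.5 RPKM in Ctrl-D and 26.1 and 26.7 RPKM in QuadD. Nearest to Dr were fidipidine (0.10), Hira (0.12), a histone chaperone, and Fgop2 (0.13). Nearest to vnd were oaf (0.18), Rad17 (0.23), a DNA damage checkpoint gene, and Atf-2 (0.23), a bZIP transcription factor. These genes were picked for their likeness, so the values are a description. Of the 7 genes themselves, vnd and vn were the closest pair at a distance of 0.41, and spi and Egfr the farthest at 3.20.

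**Figure D4:**
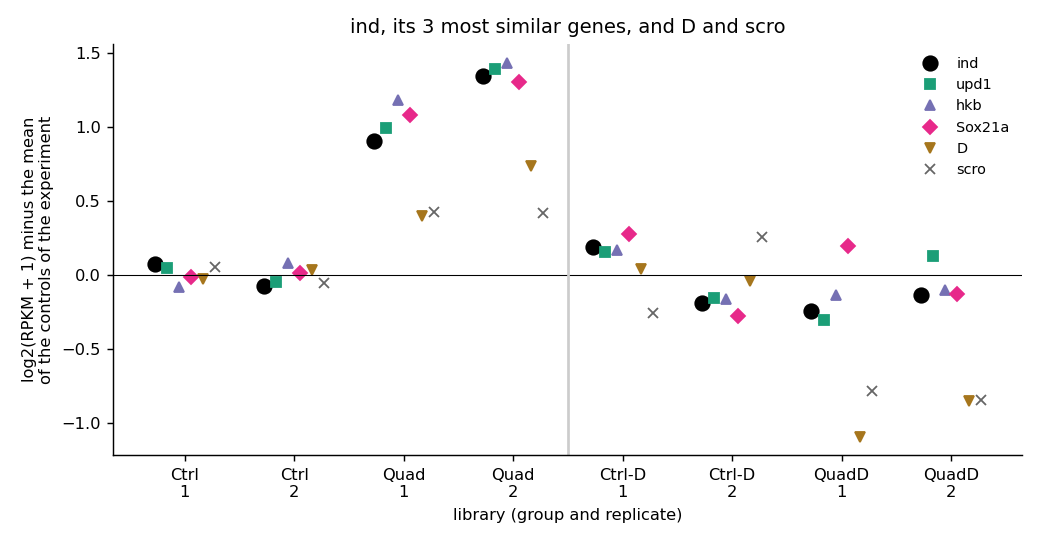
Log2(RPKM + 1) minus the control mean of the same experiment (y axis) in each library (x axis, group and replicate) for ind, the 3 genes nearest to it in pattern, and D and scro. Points are single libraries, shifted sideways for each gene. In Quad all 6 genes lie above 0, and in QuadD ind, upd1, hkb and Sox21a lie near 0 while D and scro lie below it.

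Set against all genes tested, most of these differences were of ordinary size. A larger rise than that of spi was seen for 10.1% of genes in Quad and 7.57% in QuadD, and a larger rise than that of Dr for 19.5% and 26.0%. For Egfr, 81.9% of genes in Quad and 83.8% in QuadD had a higher signed difference, and for aos in QuadD 84.2% had. In the difference of effects, 98.0% of genes lay above ind.

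**Figure D5:**
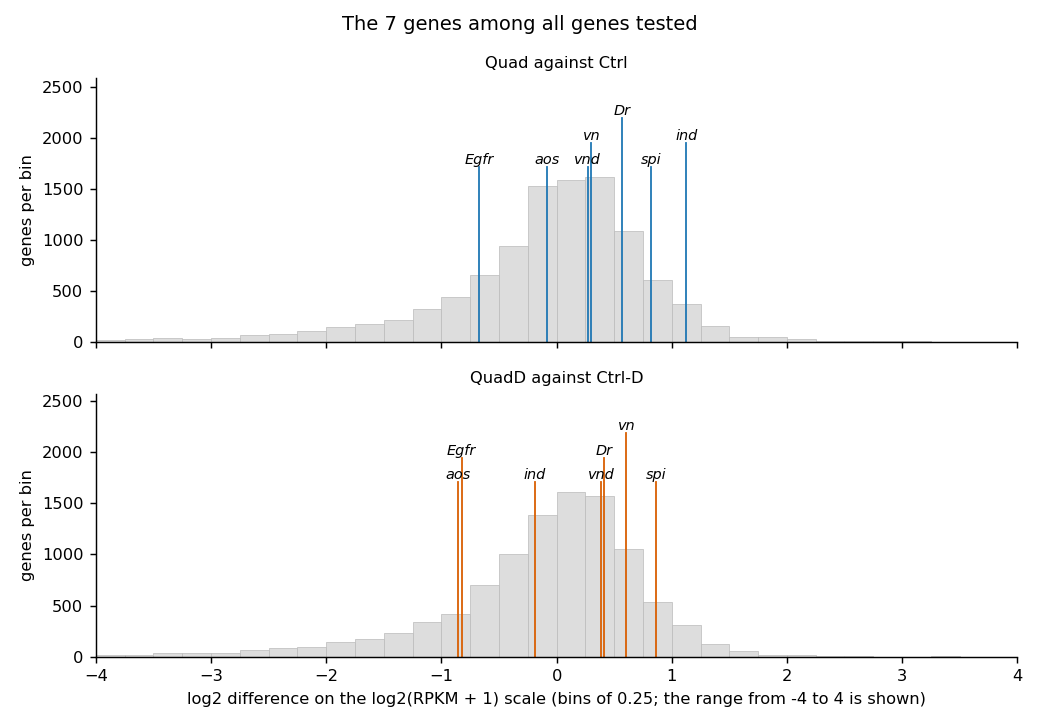
Number of genes per bin (y axis) by log2 difference (x axis, bins of 0.25 on the log2(RPKM + 1) scale) over all genes tested, with the 7 genes as vertical lines, for Quad (upper panel) and QuadD (lower panel). Ind lies farthest to the right in Quad, where 4.46% of genes tested had a larger rise. Spi lies farthest to the right in QuadD, where 7.57% had.

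All 7 genes were lower in replicate 2 than in replicate 1 of Ctrl and of Ctrl-D, where 56.1% and 48.9% of all genes were. In Quad and in QuadD 1 of 7 was lower in replicate 2, where 49.2% and 43.9% of all genes were. The median gap between replicates of the 7 genes was 0.32 in Ctrl-D, against 0.17 over all genes, and 0.034 in Ctrl, against 0.12. In Ctrl-D the gap was 0.052 for Dr, smaller than for 82.5% of genes, and 0.60 for vnd, where 5.05% of genes had a larger one.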

How the data were processed

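Both tables deposited by the authors list 17321 genes under their symbols. The values used are linear total RPKM, per the file headers, and the log2 of RPKM was deposited beside them. Read counts were deposited too, but for many genes they hold part of the reads or a dash. They summed to 2765722 to 6740835 in the 8 libraries and were used in a test only for genes in which they were proportional to RPKM within 1% or rounding. How reads were aligned, counted and assigned to strands, and on which build, is not given in the sources used here. Coordinates and sequences are therefore not printed. In a reference annotation none of the 7 genes shares exon bases with another gene, but 5 genes lie inside Egfr, 9 inside spi and 1 inside vnd.

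Values entered the tests as log2(RPKM + 1). A gene was tested if 2 or more libraries of the fit had 1 RPKM or more, with limma 3.58.1 in R 4.3.3 (trended moderated test, Benjamini-Hochberg adjustment, threshold 0.05), a script tested on simulated data. Each misexpression group was tested against its own control in a fit of 4 libraries, and both effects against each other in a fit of 8. The members and gene lists were chosen with earlier results of these data known. The rule names 8 genes, of which 1 is not reported here. Named were the other 7, ase, SoxN, wor and Kr, up to 3 passing list members with the smallest p per comparison, roles of up to 3 tested genes, and 3 genes nearest in pattern to each columnar gene. Raf and RasGAP1 were listed as phl and Gap1 and matched through synonyms. Alternatives were another pseudocount, other filters and scalings, no variance trend, a fit of all 8 libraries, the replicate block, voom and leaving out each library.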

Additional observations from a re-analysis of the deposited data

Results flagged for a closer look

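The effect on 6 of the named genes differed between the experiments by a test of the difference itself, all with the QuadD effect below the Quad effect. Of all 10775 genes tested, 2.7% passed there, 0.937% higher and 1.76% lower. The 6 genes are listed because this difference passed, so their number is no result about the named genes as a group. Ind differed by -1.32 (adjusted p = 0.0386), with a rise in Quad and overlapping libraries in QuadD, a call kept in 6 of 16 alternatives. D differed by -1.54 (adjusted p = 0.00258) and scro by -1.23 (adjusted p = 0.0355), both higher than their control in Quad and lower in QuadD. The difference of D passed in all 15 alternatives. That of scro passed in 4 of 15. It was lost with no filter (adjusted p = 0.0884), quantile normalization (0.0644), no variance trend (0.0538), the replicate block (0.0754) and each fit without 1 library but that without Ctrl-D replicate 1. Brk differed by -0.93 (adjusted p = 0.0193), lower in both, a call kept in 9 of 16 alternatives. It was lost with the replicate block (adjusted p = 0.0707) and without any 1 library of Ctrl, QuadD or Ctrl-D (up to 0.110). Wrapper differed by -1.69 (adjusted p = 0.0101), lower in QuadD and not past the threshold in Quad, a call lost without Ctrl replicate 1 (adjusted p = 0.0567) or 2 (0.0553) and kept in the other 14 of 16 alternatives. Kr, 1 of the transgenes, differed by -1.26 (adjusted p = 0.0138), raised in Quad and not in QuadD. That call was kept in 10 of 15 alternatives and lost with no filter (adjusted p = 0.0519) and without Ctrl replicate 2, QuadD replicate 1 or 2 or Ctrl-D replicate 1 (0.0512 to 0.0567). Experiment, lane and control level change together with the transgenes in this test and cannot be told apart from them.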

How the results depend on the processing

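The alternatives with edgeR and DESeq2 on counts were not run, because the deposited counts are incomplete for many genes. Over the 7 genes, 262 of the results under the alternatives kept direction and side of the threshold, 13 lost the call, 2 gained it and 5 changed sign. Changes of sign, given with the range over the fits without 1 library, were those of ind in QuadD without Ctrl-D replicate 1 (-0.38 to 0.0024) and, in the difference of effects, of vnd without Ctrl-D replicate 2 (-0.18 to 0.42) and of spi without Quad replicate 1 (-0.013), Ctrl replicate 1 (-0.11) or Ctrl-D replicate 2 (-0.19 to 0.26), none of them past the threshold. Outside the 7 genes, grk turned in Quad under RLE scaling (-0.0067) and without Quad replicate 1 (-0.070 to 0.21), and in QuadD without QuadD replicate 1 (-0.034 to 0.28) or Ctrl-D replicate 1 (-0.015). RasGAP1 turned in Quad under RLE scaling (-0.013) and in QuadD without Ctrl-D replicate 1 (-0.17 to 0.018), sli in Quad without Quad replicate 2 (-0.29 to 6.93e-05) and Kr in QuadD without Ctrl-D replicate 2 (-0.066 to 0.20).

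Leaving out 1 library left 4 of the 7 genes past the threshold in Quad, 3 to 6 in QuadD and 0 to 1 in the difference of effects, beside 4, 5 and 1. All genes past it numbered 2444 to 5325, 3293 to 5128 and 126 to 495, beside 4956, 5618 and 291. The pathway list gave 6 to 16, 11 to 17 and 0 to 2, beside 14, 14 and 0. In these fits the lone library of a group is assumed to vary like the others. The lowest count of all genes in Quad came without Ctrl replicate 2, in QuadD without QuadD replicate 2 (3 of the 7 genes) and in the difference without Ctrl replicate 2, and the highest count in the difference came without Quad replicate 1. Of the passing genes, all 4 in Quad (ind, Dr, Egfr and spi) and 3 of 5 in QuadD (Egfr, spi and aos) passed in every alternative, as did 4 of 14 and 10 of 14 on the pathway list and 1 of 6 and 4 of 6 on the columnar and midline list. Voom, which tests fewer genes, called 2 of 3 members in Quad, 2 of 3 in QuadD and 2 of 3 in the difference, 2095 of 4363, 2171 of 3964 and 97 of 3905 genes, and 5 of 8 and 4 of 8 list genes. In the difference of effects none of the 7 genes passed with no filter, quantile normalization, no variance trend or the replicate block (0 in each), and 162 genes passed with no filter and 174 with the block; the cause was not tested. Replicate numbers do not mark a shared source in the labels, and same-numbered deviations correlated at -0.043 and -0.095. The replicate block gave 4729 genes in Quad and 5339 in QuadD, with 4 and 5 of the 7 genes. Quantile normalization moved the median of all genes by 0.11 in QuadD, and no scaling turned the sign of any of the 7 genes. With 2 libraries a group, a missed threshold is weak evidence that a gene did not change.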

Other observations

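The deposited counts of the 7 genes varied in completeness. For ind, Dr and aos they were proportional to RPKM in every library, and for spi they were 0 in every library in which RPKM was high. For vnd, Egfr and vn they held part of the reads, and these parts did not always give the fold that RPKM gave. Vnd reads numbered 396 in Quad and 238 in Ctrl, a depth-scaled fold of 1.65 (95% interval from 1.40 to 1.94, counting error only), where the fold of mean RPKM was 1.22. Egfr reads numbered 153 in QuadD and 231 in Ctrl-D, a depth-scaled fold of 0.38 (from 0.31 to 0.46), where the fold of mean RPKM was 0.56. For ind the folds by counts and by RPKM were 2.33 and 2.32 in Quad. Which transcripts or positions the partial counts cover is not given in the sources used here.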
